A study of Mus musculus with 49 samples.

Results

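The clustered protocadherin genes are the 58 genes of the alpha, beta and gamma clusters, taken by symbol (Pcdha, Pcdhb followed by a number, and Pcdhg) from the 52636 genes of the count table. They comprised 14 alpha, 22 beta and 22 gamma genes. All lie on the plus strand of chromosome 18 in the mouse genome GRCm38, with the alpha cluster at 36930184 to 37187661, the beta genes from 37264938 to 37524479 and the gamma cluster at 37661793 to 37841873. A gene deposited as ENSMUSG00000007440, which the annotation calls Pcdha11, sits at the place of Pcdha10 and is called Pcdha10 here.

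RNA of the nucleus accumbens (NAc) was sequenced from medium spiny neurons (MSNs), its main projection neurons, of the D1 and the D2 type in C57BL/6J mice of unstated age, with a mouse of its own behind each library. Whole cell-FACS sorted cells from fresh, papain-treated tissue of mice with a cytoplasmic fluorophore under the Drd1 or Drd2 promoter (8 D1 and 6 D2 libraries, all male). Nuclear-FACS sorted nuclei from frozen tissue of Drd1-cre or Drd2-cre mice crossed to Thy1-loxPSTOPloxP-EGFP-F, which carry a nuclear GFP label (6 D1 and 5 D2 libraries, all male). RiboTag pulled down ribosomes by an HA tag from fresh tissue of Drd1-cre or Drd2-cre mice crossed to Rpl22-loxPexon4loxP-exon4-HA (6 D1 and 6 D2 male libraries, and 5 D1 and 5 D2 female libraries). In each line the label follows the Drd1 or Drd2 promoter and so marks any other cell in which that promoter is, or in the Cre lines has been, active. The sample titles list 8 whole cell D2 mice, whereas the columns hold 6 D2 libraries after repeat runs were summed, and columns were followed.

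Total counts ran from 10476223 to 27965357 per whole cell library, from 3701255 to 68777008 per nuclear library and from 24076888 to 45641342 per RiboTag library. In every RiboTag library the 10 highest genes held 84.95 to 88.31% of the counts. They also held over 50% in 4 FACS libraries, whole cell D2 library 2 and nuclear D1 libraries 1, 5 and 6. Fragments on olfactory and vomeronasal receptor genes, taken as silent, gave 0.955 to 15.5 counts per kilobase in nuclear D2 libraries, 0.0492 to 7.43 in nuclear D1 libraries and at most 0.0175 in RiboTag libraries. Drd1 was lower in D2- than in D1-MSNs in every method with no overlap, and Drd2 was higher in D2-MSNs with no overlap in whole cell and RiboTag libraries. In nuclear libraries Drd2 overlapped, at 32.6 to 110.3 counts per 1000000 after scaling (CPM) in D1 and 58.7 to 138.5 CPM in D2 libraries, and the 5 D2 markers together summed to 74.1 to 368 CPM in D1 and 68.3 to 170 CPM in D2 libraries.

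Clustered protocadherins are cadherin-like adhesion proteins of the neuronal surface. Each alpha or gamma transcript joins a variable exon, read from its own promoter, to constant exons shared by the whole cluster, whereas beta genes have no constant exons. Promoter choice differs from neuron to neuron, is steered by CTCF, cohesin and DNA methylation, and gives neurons the surface identities by which their branches recognise themselves. The C-type genes at the inner end of the alpha and gamma clusters (Pcdhac1, Pcdhac2, Pcdhgc3, Pcdhgc4 and Pcdhgc5) are the exception, since many neurons use them without such a choice.

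This layout sets what the counts mean. The authors counted fragments over whole gene bodies, introns included, and gave a fragment to every gene it touched. The alpha genes all end within 4 bases of each other and the gamma genes within 3 bases, so each outer gene body contains all inner ones. In none of the 47 libraries did a count increase from an outer gene to the next inner gene. The count of Pcdha1, the outermost alpha gene, was therefore the total of the alpha cluster, and that of Pcdhga1 the total of the gamma cluster. The 36 alpha and gamma counts are not 36 separate measurements. To take them apart, the count of the next inner gene was subtracted from that of each gene, which leaves the fragments that touch the outer gene's own stretch and no gene further in, called its segment here. The innermost segments, of Pcdhac2 (37143503 to 37187657) and Pcdhgc5 (37819513 to 37841873), also hold the 3 constant exons of their cluster, and with them any spliced fragment of any isoform that reaches a constant exon.

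The gamma cluster gave the most fragments in each of the 8 groups, and its level followed the method. Pcdhga1, the gamma total, lay between 259.2 and 326.5 CPM in the 22 RiboTag libraries. Whole cell D1 libraries gave 42.0, 76.5 and 126.1 CPM (lowest, median and highest), and whole cell D2 libraries 70.0, 83.5 and 146.6 CPM. Nuclear D1 libraries gave 96.8, 141.2 and 196.9 CPM, and the 5 nuclear D2 libraries gave 50.9, 60.8, 63.1, 37.4 and 51.0 CPM. The RiboTag libraries were thus above all FACS libraries, and the nuclear D2 libraries were below all nuclear D1 and whole cell D2 libraries and overlapped the whole cell D1 libraries. The alpha total (Pcdha1) ran from 61.9 to 76.1 CPM in RiboTag libraries, from 52.1 to 93.5 CPM in D1 nuclei and from 33.9 to 48.8 CPM in D2 nuclei, while whole cells had 32.9 to 64.6 CPM (D1) and 44.1 to 77.5 CPM (D2). RiboTag libraries here stood within the nuclear D1 range. The summed beta genes ran from 74.96 to 99.92 CPM in RiboTag libraries, above every FACS library (15.0 to 61.9 CPM), and were lowest in nuclear D2 libraries (15.0 to 18.9 CPM). These CPM were scaled over all 47 libraries, and the order of the groups rests on that scaling. Before it, nuclear D2 library 1 held 2530 beta fragments of 35944738 counts and nuclear D1 library 1 held 1986 of 68777008. Male RiboTag D1 library 1 held 778 of 31277596. In bulk libraries, fewer cells of a type and less RNA per cell cannot be told apart.

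Part of these totals was of the size of the genomic background. At the rate of the silent genes, the background would make up a median of 51.1% of the alpha, 40.6% of the beta and 25.4% of the gamma total in nuclear D2 libraries. In nuclear D1 libraries these medians were 8.87, 6.63 and 3.26%. Whole cell D1 libraries gave 35.2, 15.1 and 15.2%, and no RiboTag group had a median over 0.414%. The alpha cluster, whose bodies are long and mostly intron, thus carried the largest share of it in each FACS group.

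Within a cluster, the share of each segment does not depend on how libraries are scaled. In RiboTag libraries most alpha fragments lay in the innermost segment, where the constant exons are. This segment of Pcdhac2, a C-type isoform known for the tiling of serotonergic axons, held 72.6% ± 2.2 (SD, n = 6) of the alpha fragments in male RiboTag D1 and 72.2% ± 1.0 for D2 libraries (SD, n = 6). The share was 34.2% ± 4.3 for whole cell D1 (SD, n = 8) and 27.3% ± 5.3 for D2 libraries (SD, n = 6), and 26.8% ± 8.5 for nuclear D1 (SD, n = 6) and 22.3% ± 3.1 for D2 libraries (SD, n = 5). RiboTag libraries did not overlap either FACS method (exact permutation test, two-sided, adjusted p of 0.0040 to 0.0063 over 60 tests between methods). Nuclear and whole cell libraries overlapped, and their differences did not pass (exact permutation test, adjusted p = 0.0759 in D1 and 0.102 in D2). With background subtracted the D1 difference passed, at 44.5% ± 3.6 for whole cell (38.4 to 50.65%, SD, n = 8) and 27.7% ± 8.6 for nuclear libraries (16.96 to 38.74%, SD, n = 6; exact permutation test, adjusted p = 0.0045), with an overlap. Among nuclear D1 libraries, those with over 50% of counts in 10 genes (1, 5 and 6) held 35.82, 38.17 and 26.5%, above the 16.97 to 22.1% of the other 3.

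The segments of Pcdha1 to Pcdha12, whose promoters are chosen at random in each neuron, made up most of the remainder. They held 26.1% ± 2.0 (SD, n = 6) of the alpha fragments in male RiboTag D1 libraries, against 53.6% ± 2.9 for whole cell D1 (SD, n = 8) and 61.3% ± 5.7 for nuclear D1 libraries (SD, n = 6). All 3 pairs of methods differed in D1-MSNs (exact permutation test, adjusted p of at most 0.0151), and nuclear and whole cell D1 libraries overlapped. Pcdhac1, the other C-type alpha gene, whose segment of 53.49 kb is nearly all intron, had a share of 1.32% ± 0.82 for male RiboTag D1 libraries (SD, n = 6), 12.3% ± 2.0 for whole cell D1 (SD, n = 8) and 11.9% ± 3.0 for nuclear D1 libraries (SD, n = 6). In counts, the Pcdhac1 segment had 4 to 26 fragments per RiboTag library and 19 to 1180 per FACS library. The D2 libraries of these methods had means of 1.85, 13.2 and 15.3%. As counted, both shares were lower in every RiboTag library than in any FACS library. With background subtracted the Pcdhac1 share of whole cell D1 libraries was 6.66% ± 3.07 (SD, n = 8), and its lowest library, at 1.113%, lay within the range of male RiboTag D1 libraries (0.323 to 2.715%).

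**Figure D1:**
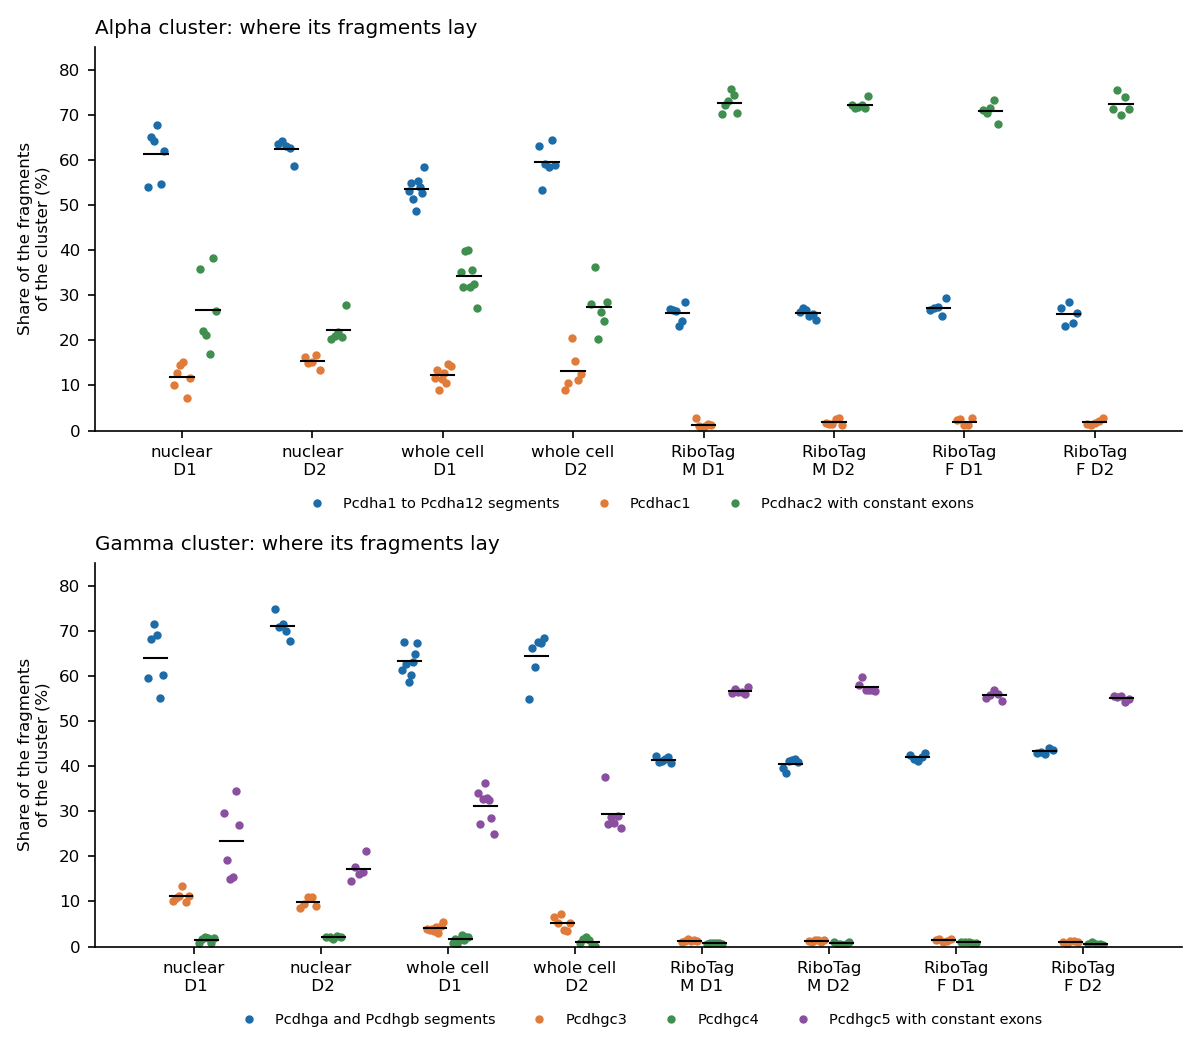
Share of the fragments of the alpha (top) and gamma (bottom) cluster that lay in each set of segments, in percent on the y axis, by group on the x axis. Points are libraries and lines are group means. In RiboTag libraries the innermost segment, which holds the constant exons, took 67.98 to 75.77% of the alpha fragments, above every nuclear and whole cell library.

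The gamma cluster was laid out alike. The innermost segment, of Pcdhgc5 (a C-type isoform reported to bind GABA-A receptors), held 56.6% ± 0.6 (SD, n = 6) of the gamma fragments in male RiboTag D1, 31.2% ± 3.8 for whole cell D1 (SD, n = 8) and 23.4% ± 8.0 for nuclear D1 libraries (SD, n = 6). In D2 libraries it held 57.4% ± 1.2 (SD, n = 6), 29.4% ± 4.2 (SD, n = 6) and 17.1% ± 2.5 (SD, n = 5). Here nuclear D2 lay below whole cell D2 libraries with no overlap (exact permutation test, adjusted p = 0.0063), while the D1 difference of -7.71 percentage points did not pass (exact permutation test, adjusted p = 0.0541) until background was subtracted (exact permutation test, adjusted p = 0.0059). Nuclear D1 libraries 1, 5 and 6 were again highest in their group, at 29.66, 34.41 and 26.86% against 15.07 to 19.22%. The 19 variable Pcdhga and Pcdhgb segments together had a share of 41.4% ± 0.6 for RiboTag D1 (SD, n = 6), 63.2% ± 3.2 for whole cell D1 (SD, n = 8) and 63.9% ± 6.6 for nuclear D1 libraries (SD, n = 6). The female RiboTag libraries, which no test between methods used, gave 54.25 to 56.94% for the innermost segment and 41.05 to 44.03% for the variable segments.

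The segment of Pcdhgc3, a C-type gene with a part in dendrite branching of cortical neurons, took its largest share in nuclei. This segment held 11.1% ± 1.3 (SD, n = 6) of the gamma fragments in nuclear D1 and 9.79% ± 1.12 for nuclear D2 libraries (SD, n = 5). Whole cell libraries gave 4.03% ± 0.78 for D1 (SD, n = 8) and 5.24% ± 1.52 for D2 (SD, n = 6), and male RiboTag libraries 1.31% ± 0.18 (SD, n = 6) and 1.27% ± 0.20 (SD, n = 6). The 3 methods did not overlap in either cell type (exact permutation test, adjusted p of 0.0040 to 0.0063). The 5 nuclear D2 libraries held 8.57, 9.43, 10.9, 11.0 and 9.01%, and the nuclear D1 libraries 9.81 to 13.5%. The antisense gene BC037039 overlaps the start of Pcdhgc3 and was counted without regard to strand. Its own count was 3.02% of the gamma total in nuclear D1, 1.73% in nuclear D2 and 0.551 to 1.76% in the other groups, and its part in the Pcdhgc3 segment was not tested. The part of unspliced RNA of gamma genes further out, to which this segment is intron, was not tested either. Pcdhgc4, needed for the survival of cortical interneurons, had the smallest mean share of the 3 gamma C-type segments in every group, at 0.0632 to 2.67% of the gamma fragments in single libraries.

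**Figure D2:**
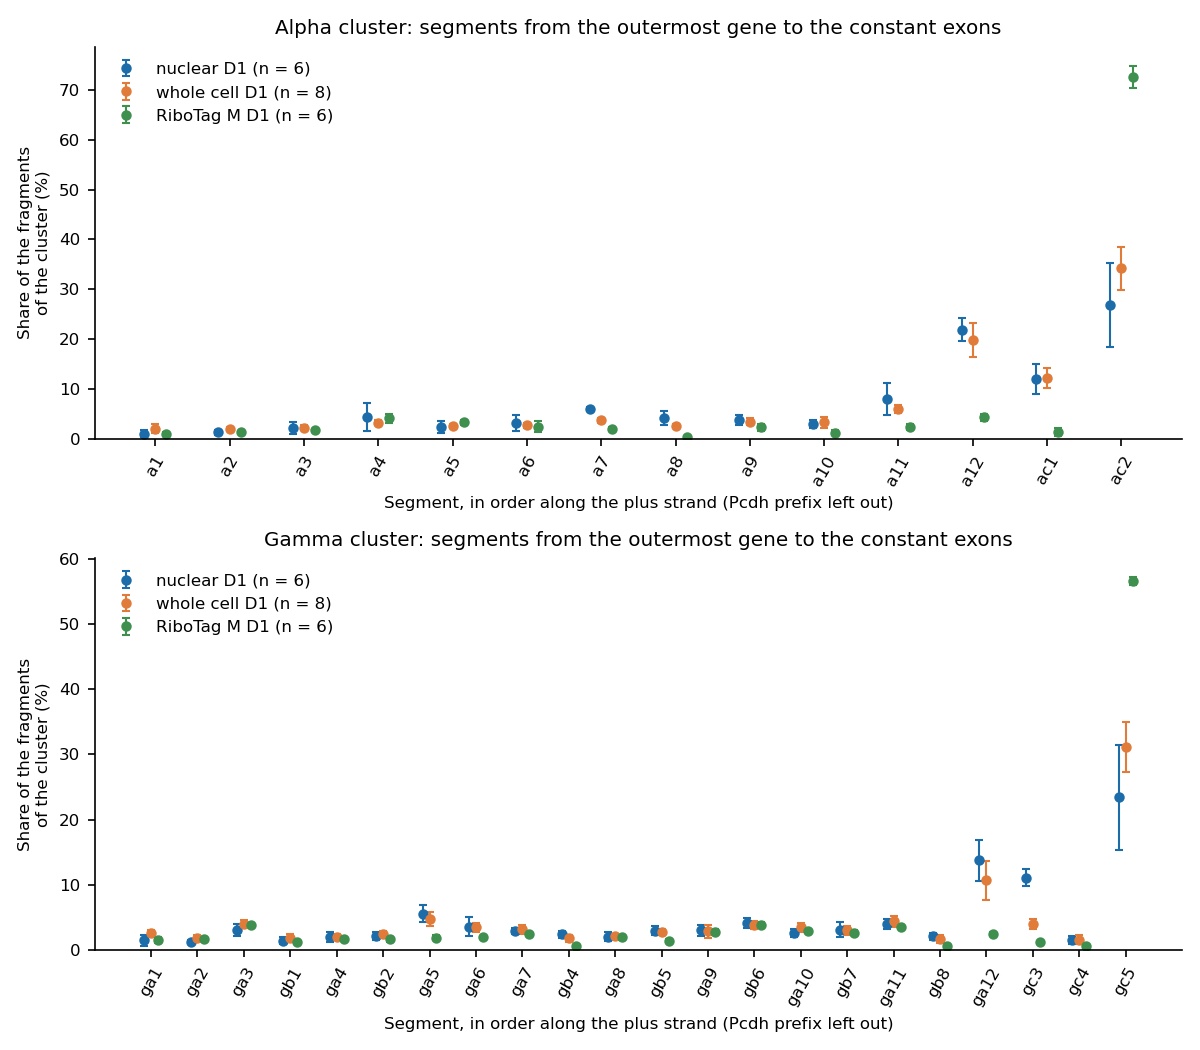
Share of the fragments of the alpha (top) and gamma (bottom) cluster on each segment, in percent on the y axis, with segments in genomic order on the x axis. Points are means and bars SD of the male D1 libraries (6 nuclear, 8 whole cell, 6 RiboTag). The Pcdhac2 and Pcdhgc5 segments, which hold the constant exons, are highest in RiboTag, and the Pcdhgc3 segment is highest in nuclear libraries.

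Neighbouring genes over these stretches also had shares that differed between methods. A fragment that touched such a gene and a cluster gene was counted for both, so these are not separate measurements. Gm10544, a minus-strand transcript over the end of the second alpha constant exon and the intron after it, had a count equal to 0.802 to 1.03% of the alpha total in the 4 RiboTag groups and 7.15 to 9.39% in the 4 FACS groups. Gm38182, a plus-strand transcript over the gamma constant exons, had 11.5 to 13.7% of the gamma total in the FACS groups and 24.0 to 25.2% in the RiboTag groups. The share of all clustered protocadherin fragments also shifted between methods. The gamma cluster held 65.2% ± 2.1 (SD, n = 6) of them in male RiboTag D1, 57.1% ± 3.9 for nuclear D1 (SD, n = 6) and 46.8% ± 3.3 for whole cell D1 libraries (SD, n = 8). The beta genes held 18.7% ± 1.3 (SD, n = 6), 13.4% ± 1.4 (SD, n = 6) and 23.4% ± 2.8 (SD, n = 8). For beta, nuclear D1 libraries did not overlap whole cell D1 libraries (exact permutation test, adjusted p = 0.0040), whereas in D2-MSNs the groups overlapped at 15.7 and 18.2% (exact permutation test, adjusted p = 0.265).

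Levels of single genes between methods were compared in 1 edgeR fit of the 37 male libraries over 29901 genes, in which a called gene had an adjusted p no higher than 0.05 and a log2 fold change beyond 0.38 either way. Method and preparation batch cannot be told apart in this design. The median gene was 1.86 to 2.13 lower on the log2 scale in RiboTag than in FACS libraries, and 79.6 to 86.3% of all genes were called in these 4 comparisons. In D1-MSNs, 52 of 58 members were higher in RiboTag than in whole cell libraries (14 alpha, 16 beta and 22 gamma), where 21.3% of all genes were higher and 80.5% were called in all. In D2-MSNs 51 members were higher (11, 18 and 22), beside 21.9% of all genes higher and 81.2% called. Against nuclear libraries, RiboTag was higher for 40 members in D1 (3, 15 and 22), beside 20.2% of all genes, and for 56 in D2 (14, 20 and 22), beside 26.3%. No member was called lower in RiboTag in these 4 comparisons, while 59.3 to 60% of all genes were. The alpha and gamma bodies are nested, and each also counts the fragments of the innermost segment of its cluster. Their calls in this and the following comparisons of methods are therefore not separate measurements. Segments were not tested in this fit, so a gain of a body need not be a gain of its own stretch.

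Gamma genes had a median log2 fold change in RiboTag of 2.11 against whole cell D1, 1.81 against whole cell D2, 1.25 against nuclear D1 and 2.75 against nuclear D2 libraries. In the same order the beta median was 1.11, 1.43, 1.56 and 2.33, above the gamma median against nuclear D1 libraries and below it against the other 3 groups. Pcdhgc5, whose body holds the constant exons shared by all gamma isoforms, had the largest gain of the gamma genes in each. The log2 fold changes of Pcdhgc5 were 2.76 (SE 0.28), 2.62 (SE 0.31), 2.33 (SE 0.31) and 4.31 (SE 0.36), all with an adjusted p of at most 3.3e-08 in edgeR. Its level was 145.1, 165.4 and 172.9 CPM in male RiboTag D1 libraries (lowest, median and highest) and 162.8, 169.2 and 172.1 CPM in D2 libraries. The female D1 libraries had 151.3, 156.8, 157.1, 166.8 and 147.1 CPM, and the female D2 libraries 178.2, 161.0, 169.8, 177.1 and 158.5 CPM. Whole cell libraries had 10.5 to 41.1 CPM in D1 and 19.0 to 43.2 CPM in D2, and nuclear libraries 14.6 to 58.4 CPM in D1 and 6.19 to 10.8 CPM in D2. From high to low, the order was thus RiboTag, nuclear D1 with both whole cell groups, whose ranges overlapped, and nuclear D2, whose highest library (10.77 CPM) just passed the lowest whole cell D1 library (10.5 CPM).

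Alpha genes gained least, with medians of 0.68, 0.43, 0.13 and 0.91 in the same order. Pcdhac2, with the constant exons, was the alpha gene with the largest gain in each (1.69, 1.77, 1.53 and 2.54). Its 22 RiboTag libraries had 44.2 to 57.6 CPM, against 8.93 to 22.9 CPM (D1) and 11.2 to 18.9 CPM (D2) in whole cells and 12.5 to 27.3 CPM in D1 nuclei. The nuclear D2 libraries had 8.70, 10.3, 9.17, 7.03 and 10.1 CPM. No RiboTag library overlapped a FACS library for this gene. Pcdha1, the alpha total, differed by 0.08 (SE 0.16, adjusted p = 0.657) between RiboTag and nuclear D1 libraries.

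Between nuclear and whole cell libraries the direction depended on the cell type. In D1-MSNs, 32 members were higher in nuclei (12 alpha and 20 gamma), beside 10.7% of all genes higher, 8.44% lower and 19.1% called. In D2-MSNs, 46 members were lower in nuclei (14 alpha, 10 beta and 22 gamma), beside 16.5% of all genes lower, 3.68% higher and 20.2% called. Pcdhga1 had log2 fold changes of 0.82 (SE 0.21, adjusted p = 0.0038) in D1 and -0.88 (SE 0.24, adjusted p = 0.0055) in D2. Pcdha1 had 0.56 (SE 0.15, adjusted p = 0.0072) and -0.50 (SE 0.17, adjusted p = 0.0306). The median of all genes was -0.32 in D1 and 0.14 in D2. The alpha, beta and gamma medians were 0.54, -0.39 and 0.87 in D1 and -0.49, -0.93 and -0.93 in D2, so that the alpha and gamma medians stood above that of all genes in D1, the beta median below it, and all 3 below it in D2. The comparisons in D2-MSNs depended on scaling. With DESeq2's size factors the median of all genes there became 0.42, and 29 members were lower (1 alpha, 6 beta and 22 gamma). In D1-MSNs, leaving out the FACS libraries with over 50% of counts in 10 genes left 17 members higher and 1 lower. Beta genes were not called in D1-MSNs, where 2 were lower under size factors.

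The difference between the cell type contrasts of the 3 methods was tested directly, by the joint interaction of cell type and method in the same fit. It passed at an adjusted p of at most 0.05 for 38 members, beside 17.8% of all genes. These were all 14 alpha and all 22 gamma genes, which share fragments, and the beta genes Pcdhb14 (adjusted p = 0.0105) and Pcdhb17 (adjusted p = 0.0439).

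Within nuclear libraries, the counts of gamma gene bodies were lower in D2- than in D1-MSNs after scaling. Of the 58 members, 36 passed the study's filter of at least 1 FPKM over the gene span in at least 1 library (1 alpha, 13 beta and 22 gamma), since the long alpha bodies have few fragments per kilobase. A called gene here met the same limits and had a mean normalised count above the 25th percentile and, in nuclei, a standard error below the 75th percentile. By this rule 13 gamma genes were lower in D2-MSNs, beside 9.06% of all genes lower and 12.2% called. All 22 gamma genes had a negative log2 fold change, from -0.80 to -0.34 with a median of -0.38, beside a median of 0.03 over all genes tested. As their bodies are nested, these are largely the same fragments counted again.

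Of the nested gamma gene bodies, those of the 3 C-type genes had the lowest log2 fold changes. Pcdhgc3 had 12.8, 17.8, 18.04, 11.2 and 16.5 CPM in the 5 nuclear D2 libraries and 27.6, 45.2 and 79.6 CPM (lowest, median and highest) in the 6 D1 libraries. Pcdhgc4 had 8.45, 12.0, 11.2, 7.09 and 11.9 CPM in D2 and 16.7, 31.1 and 59.8 CPM in D1 libraries. Pcdhgc5 had 7.36, 10.7, 10.1, 6.19 and 10.8 CPM in D2 and 14.6, 28.8 and 58.4 CPM in D1 libraries. For each of the 3, every D2 library was below every D1 library. The Pcdhgc4 body holds the fragments of Pcdhgc5, and its own segment, without them, differed by 0.11 (SE 0.32, adjusted p = 0.839). The log2 fold changes of the 3 bodies within the nuclear fit were -0.66 (SE 0.13, adjusted p = 0.0101), -0.72 (SE 0.18, adjusted p = 0.0207) and -0.80 (SE 0.21, adjusted p = 0.0217). Pcdhgc3 was called without any 1 of the nuclear D2 libraries, whereas Pcdhgc4 and Pcdhgc5 missed the threshold without library 1, 5 or 7.

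**Figure D3:**
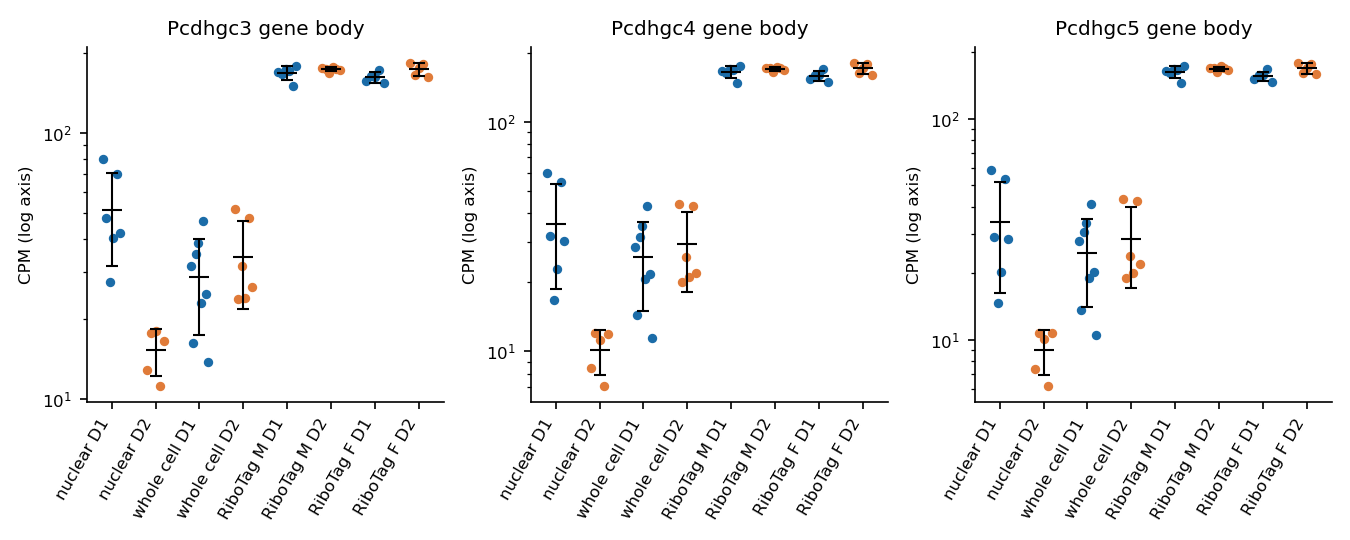
Levels of the Pcdhgc3, Pcdhgc4 and Pcdhgc5 gene bodies in CPM (log axis) in each library, by group on the x axis, with D1-MSNs in blue and D2-MSNs in orange. Points are libraries, and black marks are means with SD. With CPM scaled over all 47 libraries, the 5 nuclear D2 libraries lie below all nuclear D1 libraries for each gene. The RiboTag libraries lie above all others.

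The size of this difference rested on filter and scaling, and the separation of the groups in CPM rested on scaling. The CPM above were scaled over all 47 libraries, whereas the fold changes were scaled over the 9228 genes that passed the nuclear filter. With the filter of more than 1 FPM (fragments per 1000000) in at least 2 libraries alone (30791 genes), the gamma median became -1.53, and 44 members were lower (14 alpha, 8 beta and 22 gamma), beside 19.3% of all genes lower. In that fit the median of all genes was 0.26. Pcdhac2, whose CPM did not overlap between the groups, had a log2 fold change of 0.04 (SE 0.13, adjusted p = 0.871) in the first fit and of -1.14 (SE 0.27, adjusted p = 0.0103) in the second. The number called also rested on single libraries: it was 1, 3, 5, 1 and 1 without nuclear D2 library 1, 2, 3, 5 and 7, and 20 without nuclear D1 libraries 1, 5 and 6. All 22 gamma genes had an unadjusted p under 0.05.

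Segments counted each shared fragment once, although inner segments can also hold unspliced RNA of genes further out. Of 36 segments, 3 were lower in D2 nuclei, a share no larger than the 10.2% of all features that were lower. Of all features 5.6% were higher and 15.8% called. They were those of Pcdhgb6 (-0.91, SE 0.21, adjusted p = 0.0131), Pcdhgc5 with the constant exons (-0.80, SE 0.21, adjusted p = 0.0214) and Pcdhgc3 (-0.53, SE 0.15, adjusted p = 0.0298). The Pcdhgb6 segment, which holds a variable gamma exon and the stretch after it, had 1.34, 2.00, 1.96, 0.853 and 1.36 CPM in D2 libraries. In D1 libraries it had 3.499, 6.575 and 7.935 CPM (lowest, median and highest), with no overlap. Among the other 33 segments, the 14 alpha segments had a median of 0.08 and the gamma segments ranged up to 0.24. Once background was subtracted, the Pcdhgc3 segment had -0.39 (adjusted p = 0.129), and the alpha median became -0.26. Without nuclear D2 library 5 no segment was called, and without libraries 1 and 7 there was 1 in each case.

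None of the 13 beta genes tested in nuclei was called by edgeR or DESeq2, and 1 had an unadjusted p under 0.05 in edgeR, beside 3.19% of all genes called higher and 9.06% lower. Their median log2 fold change was -0.04. That gene, Pcdhb4, had 0.322, 0.47, 0.513, 0.47 and 1.66 CPM in D2 libraries 1, 2, 3, 5 and 7, and at most 0.608 CPM in D1 libraries (1.65, SE 0.69, adjusted p = 0.111). Only library 7, with 22 counts of this gene, exceeded the D1 range.

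The gamma share of all clustered protocadherin fragments was lower in nuclear D2 libraries too, and this share is free of library scaling. The D2 libraries had 45.8, 47.4, 50.9, 43.3 and 49.2%, and the D1 libraries 52.7, 55.9 and 63.1% (lowest, median and highest), with no overlap. At a p of 0.00433, the smallest that 5 against 6 libraries allow, the exact permutation test gave an adjusted p of 0.107 over the 40 shares compared between D2- and D1-MSNs, none of which passed. With background subtracted the groups overlapped, at 53.16 to 58.78% for D2 and 55.05 to 63.39% for D1 libraries (exact permutation test, adjusted p = 0.252).

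Some other genes and marker sums also differed between nuclear D2 and D1 libraries. The MSN marker genes Ppp1r1b (-1.94) and Gad1 (-0.48) were lower in D2 nuclei, while Rgs9 (-0.69), Pde10a (-0.28) and Bcl11b (-0.11) of the same list did not pass. The 5 oligodendrocyte markers summed to 204 to 609 CPM in nuclear D1, 81.7 to 208 CPM in nuclear D2 and 27.3 to 44.2 CPM in whole cell libraries. In the nuclear fit, however, none of these 5 was called, and their median log2 fold change was -0.05. The 5 astrocyte markers summed to 65.3 to 131 CPM in nuclear D1, 48.3 to 61.5 CPM in nuclear D2 and 13.2 to 42.2 CPM in whole cell libraries. The 5 endothelial markers summed to 14.2 to 60.2 CPM in nuclear D1 and 60.7 to 76.2 CPM in nuclear D2 libraries. The 5 microglia markers overlapped, at 45.7 to 62.0 CPM in nuclear D1 and 48.0 to 53.0 CPM in nuclear D2 libraries. No marker of these lists was at 0 in a whole group. The part of cell make-up, background and depth in the gamma difference was not tested.

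**Figure D4:**
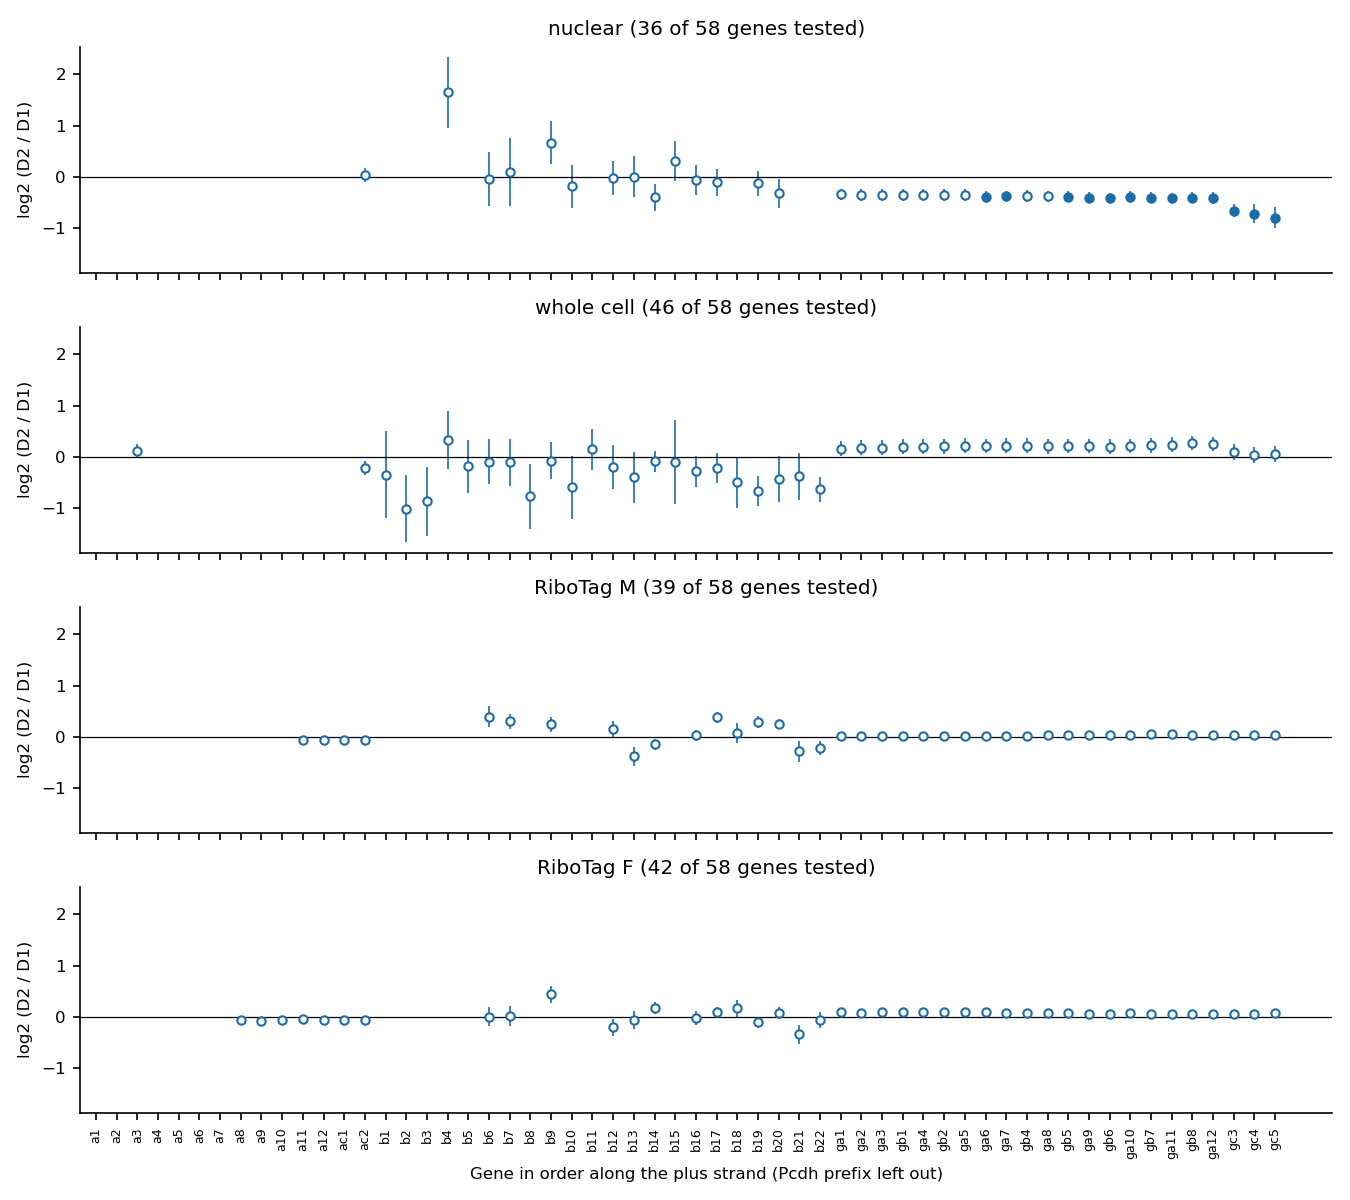
Log2 fold change of D2- over D1-MSNs (y axis, bars are SE) for each member tested, in genomic order (x axis), by method and label. Filled points are called genes. Called genes are the 13 gamma genes below zero in the nuclear panel, and RiboTag gamma genes lie within 0.1 of zero.

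In whole cell libraries no member was called between D2- and D1-MSNs. Of the 46 members tested, 2 had an unadjusted p under 0.05 in edgeR, beside 1.06% of all genes called (0.361% higher and 0.703% lower), and DESeq2 called 2, Pcdhgb8 (0.40, adjusted p = 0.0211) and Pcdhga12 (0.39, adjusted p = 0.0338), both higher in D2-MSNs. The gamma genes had positive log2 fold changes in 22 of 22, with a median of 0.21 beside -0.09 for all genes. As their bodies are nested, these are largely the same fragments counted again. The gamma segments went both ways, from -0.85 (Pcdhga1) to 0.68 (Pcdhga12). With DESeq2's size factors, which moved the median of all genes to 0.04, the gamma median was 0.35. The beta genes leaned the other way, with 20 of 22 negative, but this was 15 of 22 under size factors and 12 of 22 without the FPKM filter. Pcdhb19 (-0.67, adjusted p = 0.281) and Pcdhb22 (-0.63, adjusted p = 0.218) had the smallest p. Of 36 segments none was called, 4 had an unadjusted p under 0.05, and 1.12% of all features were called (0.359% higher and 0.76% lower). The Pcdhga12 segment came nearest, at 5.67, 6.71 and 13.3 CPM (lowest, median and highest) in D1 and 10.4, 12.0 and 24.99 CPM in D2 libraries (0.68, SE 0.18, adjusted p = 0.0654). These groups overlapped. With size factors it reached 0.80 (adjusted p = 0.0410).

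In RiboTag libraries the D1- and D2-MSN levels of most members lay close together. In male libraries 39 members were tested and none was called by edgeR, beside 2.56% of all genes (0.943% higher and 1.62% lower), with 4 at an unadjusted p under 0.05 and none called by DESeq2. The 22 gamma genes had log2 fold changes of 0.01 to 0.05 and the 4 alpha genes tested -0.06 to -0.05. For Pcdhgc5 the difference was 0.04 (SE 0.05). Pcdhb17 had 6.85, 7.33 and 8.01 CPM (lowest, median and highest) in D1 and 7.97, 9.37 and 12.0 CPM in D2 libraries, which overlapped by a narrow margin. Its log2 fold change of 0.38 (SE 0.11, adjusted p = 0.0264) was just under the fold threshold. In female libraries 42 members were tested and none was called by edgeR or DESeq2, beside 1.9% of all genes (0.723% higher and 1.18% lower). Only Pcdhb9 had an unadjusted p under 0.05 there (0.44, adjusted p = 0.1503).

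A single segment was called in RiboTag, in female libraries. The Pcdhga6 segment, at 37707039 to 37714763, holds a variable gamma exon and the stretch after it. It had 3.51, 4.72, 5.53, 4.46 and 4.23 CPM in D1 and 6.97, 6.38, 7.48, 8.79 and 6.90 CPM in D2 libraries. Every D2 library was above every D1 library, on 36 to 59 fragments against 65 to 103. The log2 fold change was 0.66 (SE 0.14, adjusted p = 0.0051), and 1 of 22 segments compares with 2.61% of all features called. In male libraries the same segment had -0.18 (adjusted p = 0.473), at 5.38, 6.00 and 6.61 CPM in D1 and 4.42, 4.92 and 7.47 CPM in D2 libraries, and none of 22 segments was called (2 with an unadjusted p under 0.05, beside 3.92% of all features). Whether the D2 to D1 contrast differed between male and female libraries was tested for gene bodies only. This interaction passed for none of 43 members in edgeR, nor for any of 7172 genes (0% called), and 1 member, Pcdhb19, had an unadjusted p under 0.05 (adjusted p = 0.646).

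The beta genes do not share bodies, apart from Pcdhb21 and Pcdhb22, which overlap by 455 bases, so each was measured on its own. Per kilobase of gene body, the mean over all libraries was highest for Pcdhb20 (1.57 CPM), Pcdhb17 (1.15 CPM) and Pcdhb16 (0.919 CPM), and lowest for Pcdhb8 (0.322 CPM), Pcdhb4 (0.236 CPM) and Pcdhb1 (0.165 CPM). All are adhesion proteins read from variable exons with promoters of their own. The order of the 22 genes was much the same in all groups but nuclear D2: Spearman's rho between group means was 0.762 to 0.956 among the other 7 groups and 0.0604 to 0.236 with nuclear D2 (descriptions over 22 genes, without a test). Pcdhb20 ranked 1 in 7 groups and 3 in nuclear D2. The part of background in the nuclear D2 order was not tested.

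Beta levels followed the method. Pcdhb20 had 7.13 to 11.7 CPM in the 22 RiboTag libraries, against 1.07, 2.84 and 5.61 CPM (lowest, median and highest) in whole cell D1, 0.224, 3.03 and 5.22 CPM in whole cell D2 and 1.14, 2.26 and 3.20 CPM in nuclear D1 libraries. The nuclear D2 libraries had 0.835, 0.903, 0.888, 0.731 and 1.13 CPM, all below nuclear D1 libraries when scaled over all 47 libraries. In the fit of nuclear libraries alone, Pcdhb20 was not called between D2- and D1-MSNs (-0.32, SE 0.28, edgeR, adjusted p = 0.445). RiboTag libraries were thus above all others, with log2 fold changes of 1.36 (SE 0.39) against whole cell D1, 1.91 (SE 0.43) against whole cell D2, 1.89 (SE 0.44) against nuclear D1 and 3.58 (SE 0.50) against nuclear D2 libraries, all called. Pcdhb17 ran from 6.63 to 11.99 CPM and Pcdhb16 from 5.53 to 9.12 CPM in RiboTag libraries, while neither passed 6.10 CPM in a FACS library. At the other end, Pcdhb8 had 0.57 to 2.51 CPM and Pcdhb4 0.385 to 2.04 CPM in RiboTag libraries, which overlapped the FACS libraries, at up to 2.06 and 1.92 CPM.

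The range between beta genes was widest in RiboTag. Pcdhb20 had 2.29 ± 0.23 CPM per kilobase for male RiboTag D1 (SD, n = 6) and 0.252 ± 0.041 for nuclear D2 libraries (SD, n = 5), where Pcdhb1 had 0.134 ± 0.046 (SD, n = 6) and 0.271 ± 0.056 (SD, n = 5). Pcdhb1 was thus below Pcdhb20 by more than the spread in RiboTag, and the genes lay within their spread in D2 nuclei. Background at the rate of the silent genes had a median of 40.6% of the beta total in nuclear D2 libraries. In male RiboTag D1 libraries this median was 0.101%. The part of background in the narrow range of D2 nuclei was not tested. Pcdhb1 was also the 1 beta gene not called in any of the 6 comparisons of methods. It had at most 9 counts in any RiboTag library and none in male D2 library 6, where 3 counts are taken as the smallest that can be told from none.

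**Figure D5:**
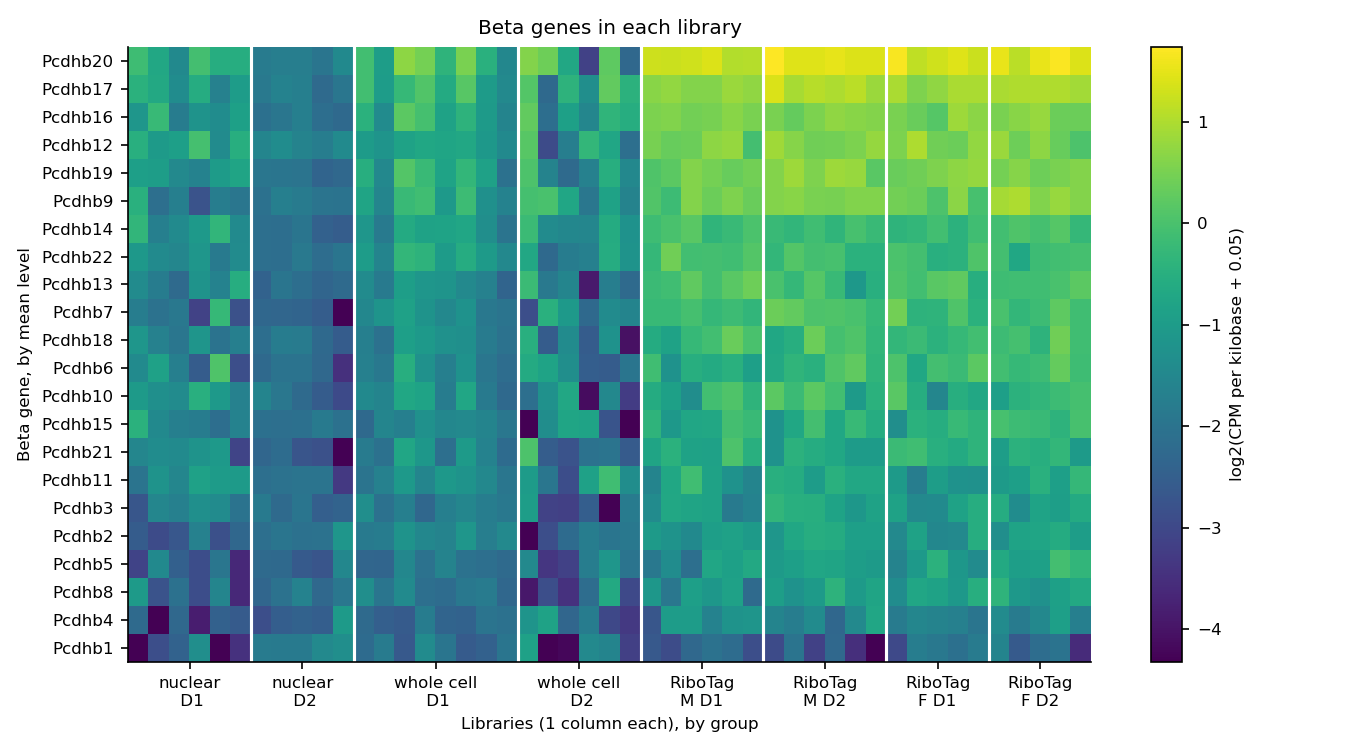
Level of each beta gene (rows, by mean level) in each library (columns, by group), as log2 of CPM per kilobase plus 0.05 in colour. RiboTag columns share 1 pattern from Pcdhb20 at the top to Pcdhb1 at the bottom, nuclear D2 columns vary less, and single dark cells mark genes with few or no fragments in a library.

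Libraries of a group did not rank the beta genes equally well alike. The median rho between library pairs was 0.865 to 0.881 in the 4 RiboTag groups, 0.729 for D1 and 0.272 for D2 whole cells (-0.284 to 0.667 over the 15 pairs of the latter), and 0.537 for D1 and 0.503 for D2 nuclei. Libraries held 695 to 1210 beta fragments in RiboTag, 902 to 2777 in whole cell D2, 145 to 2970 in nuclear D1 and 218 to 3178 in nuclear D2, and the part of depth in these ranks was not tested. In whole cell D2, 10 of 132 values were at 3 or fewer counts, 5 of them at 0, against 0 of 176 in whole cell D1. Pcdhb15 had no count in whole cell D2 libraries 1 and 6 and up to 156 counts in the others. The median spread between libraries beyond counting error, as a coefficient of variation from edgeR's dispersion, was 82.0% for beta genes in whole cell D2 libraries. It was 91.2% for the 14554 other features of like counts, so that the scatter was of the size seen across genes there. In whole cell D1 libraries it was 37.0% for beta and 33.7% for other features.

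Of genes that bear on the clusters, few differed between D2- and D1-MSNs outside nuclei. In nuclear libraries 3 of 5 tested non-clustered protocadherins (of 11 listed) were lower in D2-MSNs, namely Pcdh10 (-1.04), Pcdh17 (-0.61) and Pcdh1 (-0.42). Of the 15 regulators, 6 were tested and the cohesin subunit Smc1a was lower (-0.67). Of the 16 partners and effectors, 12 were tested and 3 members of the WAVE complex, which links these adhesion proteins to actin, were lower: Nckap1 (-0.64), Wasf1 (-0.60) and Cyfip2 (-0.55). In whole cell and male RiboTag libraries edgeR called none of the 29 and 22 list genes tested, of which 7 and 8 had an unadjusted p under 0.05. In female RiboTag libraries it called Pcdh8 (-0.61, adjusted p = 0.0051) of 23. These lists sat beside 12.2, 1.06, 2.56 and 1.9% of all genes called in the 4 comparisons.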

How the data were processed

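The authors aligned paired-end reads of ribosome-depleted, stranded libraries with HISAT2 2.0.5 to GRCm38 and deposited raw counts per gene from featureCounts, over Ensembl 90 gene bodies, without strand, with a fragment counted for every gene it overlapped and multi-mapping reads left out. Of the 49 columns, repeat runs were summed by label to 47 libraries. The whole cell D2 repeat differed from its partner by a chi-square per degree of freedom of 1.04 (20.1 to 423 between other libraries of its group), whereas the whole cell D1 repeat had 6.90 (6.02 to 147) and so lay near the lowest value between separate libraries. Alternatives kept the latter as a ninth library or left it out. Columns were mapped to groups by name. The numbers of the nuclear D2, whole cell D2 and female RiboTag columns do not match sample titles and only name a library here. The members and lists were chosen with earlier results of these data known.

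CPM (counts per 1000000, after scaling) used TMM factors over all 47 libraries. Tests were edgeR 4.0.16 quasi-likelihood fits in R 4.3.3 with Benjamini-Hochberg adjustment over all genes tested, after a filter of more than 1 FPM (the count per 1000000 fragments) in at least 2 libraries and, within a method, the study's FPKM filter (at least 1 in 1 FACS library, or 0.1 in 2 RiboTag libraries). DESeq2 1.42.0, the study's tool, its size factors, other filters, background subtraction, lane, left-out libraries and repeats were alternatives. Segments took only the first filter. Shares were compared by exact permutation tests (two-sided, scipy 1.17.1), with 40 in the family of cell types and 60 in that of methods. Of the deposited genes, 99.72% matched GENCODE M21, which gave exons, and background per kilobase came from 1932 silent genes. Counts of 3 or fewer were taken as the floor, for counting error only. This is 0.0436 to 0.811 per 1000000 total counts before scaling, and so not on the scale of the CPM given here. The fits were tested on simulated data with known changes.

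Named with values were the C-type genes, the outermost alpha and gamma gene, the 3 highest and 3 lowest beta genes per kilobase, and up to 5 called members or segments per cluster and comparison. Others named, such as Pcdhb9, Pcdhb15, Pcdhb19, Pcdhb22 and the Pcdhga12 segment, were chosen after their values were seen. A rule for the 5 genes most alike in level over the 8 groups named none, since 162 genes tied with the summed beta genes and 71 with Pcdhgc5. In the male RiboTag libraries, same-numbered D1 and D2 libraries had correlations of -0.06 to 0.14 of their deviations from group means, so numbers were not taken as pairs. The MSN marker list is not reported here in full.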

Additional observations from a re-analysis of the deposited data

Results flagged for a closer look

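Of 104 sets of values, each of 1 quantity over the libraries of 1 group, 6 held a library that stood apart by Dixon's test. The test flags about 1 in 20 such sets by chance, so 6 is near the number it would flag anyway. Shares of the same cluster are tied to each other. In nuclear D2 library 7, the Pcdha1 to Pcdha12 segments held 58.63% of the alpha fragments (62.57 to 64.09% in the other 4) and the Pcdhac2 segment with the constant exons 27.86% (20.2 to 21.87%). In male RiboTag D2 library 6 the latter was 74.13% (71.39 to 72.15% in the others), and the summed beta genes were lowest at 82.63 CPM (90.25 to 94.25 CPM). In whole cell D2 library 1 the Pcdhgc5 segment with the constant exons held 37.67% of the gamma fragments (26.17 to 29.04% in the others). In whole cell D2 library 5 the alpha total was 77.51 CPM (44.07 to 55.4 CPM). The contrast of D2- and D1-MSNs differed between the 3 methods for 38 members by the joint interaction test in edgeR, among which the 14 alpha and the 22 gamma genes share fragments.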

How the results depend on the processing

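In nuclear libraries, 13 members were called between D2- and D1-MSNs. The count was 44 with the fragments-per-million filter alone, 20 without the nuclear D1 libraries with over 50% of counts in 10 genes (chosen after seeing the data), and 1 to 5 when a nuclear D2 library was left out. The 3 segments called there became 22 with no filter on low counts and 0 to 3 when a nuclear D2 library was left out. In whole cell libraries the 0 members became 2 with DESeq2, and the 0 segments became 1 with size factors and 1 with the repeat kept as a ninth D1 library. In male RiboTag libraries the 0 members became 1, Pcdhb17, with the adjusted p alone. Between nuclear and whole cell libraries, the 46 members lower in D2-MSNs became 29 with size factors, and the 32 called in D1-MSNs, all higher, became 18 (17 higher and 1 lower) without the FACS libraries with over 50% of counts in 10 genes. The causes were not tested. The other 123 settings of counts were within 1.5 times. With a replicate block by library number, 0 members and 0 segments were called in male RiboTag libraries, as without it. No paired analysis was possible for the other comparisons because their columns carry no title number shared by D1 and D2. Single genes and segments stayed on the same side of the threshold in 80 settings, passed it in 5 and lost it in 18, and none of these reversed. The Pcdhac2 body in nuclei, not called at 0.04, was -1.14 and called with the fragments-per-million filter alone (edgeR, adjusted p = 0.0103) and -0.26 with background subtracted. Alpha segments of RiboTag libraries rest on few fragments, and background limits alpha and beta values in nuclear D2 libraries.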

Other observations

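The 3 highest beta genes of a library held between 22.3 and 40.9% of its beta fragments. Of the 50-base words in the annotated transcripts of a beta gene, 0 to 12% also occurred in another clustered protocadherin gene.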
